A study of Homo sapiens with 52 samples.

Results

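The genes described here are 10 genes of the nuclear lamina and the inner nuclear envelope: LMNB1, LMNB2, LMNA, LBR, TMPO, EMD, SUN1, SUN2, LEMD2 and BANF1. They are picked out by symbol from 59408 genes in each table, and all 10 were among the 14898 genes with enough signal to be tested. WI-38 cells, a line of normal human embryonic lung fibroblasts with wild-type genotype, were profiled by mRNA sequencing in 26 groups of 2 libraries. PMD-Sen cells were exposed to 0.0090% sodium dodecyl sulfate (SDS, a detergent that damages the plasma membrane), Ca2+-Sen cells to 75 mM KCl, which lets calcium into the cell, and DDR-Sen cells to 250 nM doxorubicin (DXR, which breaks DNA), with an exposure of 24 h in each case. Sampling began when the agent was washed out (day 0), went on daily up to day 4, and was repeated on day 6, day 8 and day 16. Untreated cells at a population doubling level of 32 to 46 were the control, and replicatively senescent (RS) cells had been passaged until they stopped dividing at about population doubling level 52. A single untreated group served all 25 comparisons, so they share its error, and it was not collected again at the later days.

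The lamina is a mesh of intermediate filaments beneath the inner nuclear membrane. B-type lamins, encoded by LMNB1 and LMNB2, stay farnesylated and bound to the membrane. A-type lamins, lamins A and C encoded by LMNA, also reach the nuclear interior, and prelamin A is trimmed to mature lamin A. The lamin B receptor (LBR) and LEM-domain proteins (the TMPO products, known as LAP2, emerin from EMD, and LEMD2) tie chromatin to the membrane, BANF1 bridges DNA and LEM domains, and SUN1 and SUN2 join the lamina to the cytoskeleton through the LINC complex. Loss of lamin B1 is widely used as a mark of senescent fibroblasts.

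The stretches before the annotated starts of the 3 lamin genes are shown because these genes had similar names and different courses. Each is read 5′ to 3′ on the gene's strand from RefSeq (GRCh38.p14), ends before the first exon base that GENCODE 29 gives, and has in capitals CCAAT (the CCAAT box), then TTTGAA (a cell cycle homology region, CHR, found at many genes of dividing cells) and TTTCCCGC (an E2F-type site), on either strand.
LMNB1 (chr5:126776373-126776622, plus strand): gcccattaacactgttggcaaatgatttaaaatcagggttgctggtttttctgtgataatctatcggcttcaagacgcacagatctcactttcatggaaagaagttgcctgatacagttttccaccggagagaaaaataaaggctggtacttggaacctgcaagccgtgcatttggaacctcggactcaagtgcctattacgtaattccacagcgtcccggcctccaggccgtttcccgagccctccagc
LMNB2 (chr19:2456997-2457209, minus strand): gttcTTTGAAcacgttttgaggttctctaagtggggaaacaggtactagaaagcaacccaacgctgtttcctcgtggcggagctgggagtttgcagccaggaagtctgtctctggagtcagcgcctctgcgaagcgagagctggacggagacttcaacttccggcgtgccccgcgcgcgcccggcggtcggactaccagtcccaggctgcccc
LMNA (chr1:156082323-156082572, plus strand): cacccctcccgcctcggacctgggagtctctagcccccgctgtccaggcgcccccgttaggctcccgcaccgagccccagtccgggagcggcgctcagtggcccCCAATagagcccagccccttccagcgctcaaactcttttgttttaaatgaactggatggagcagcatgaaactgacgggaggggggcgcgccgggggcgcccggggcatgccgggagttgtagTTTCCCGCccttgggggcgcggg
The LMNB1 stretch held none of these letters, the LMNB2 stretch held TTTGAA, and the LMNA stretch held CCAAT and TTTCCCGC. Only 1 listed start of each gene is printed, and this contrast depends on which start is taken. LMNB1 start 2 held CCAAT, and LMNA starts 2 and 3 held neither CCAAT nor TTTCCCGC.

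Searched over the 250 bases before each RefSeq start on both strands, CCAAT was present at 32.01% of 35116 promoters. The 9 members with an entry had 15 promoters, some members more than 1. CCAAT was at 6 of these 15 (LMNB1 at its other listed start, LMNA, TMPO, EMD and SUN2). TTTGAA was present at 13.32% of promoters and at 2 of the 15, in LMNB2 and SUN2. TTTCCCGC was present at 1.39% of promoters and at 1 of the 15, in LMNA. The related TTTGGCGC was present at 0.5496% and at 0 of the 15. The GC box GGGCGG was present at 42.64% of promoters and at 11 of the 15, in 6 members. Such matches only describe the letters in these windows, and the 5 motifs were chosen with the results known.

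On the deposited tables' scale a level is a normalised read count, averaged over the 2 libraries of a group, and no value of a single library is given. Divided by the length of all its annotated exons, LMNA was the highest of the 3 lamins in untreated cells, at 4724 counts per kb, against 1294 for LMNB2 and 318 for LMNB1. BANF1 stood at 1387 counts per kb and EMD at 670, and LBR, TMPO, SUN1, SUN2 and LEMD2 between 242 and 311 counts per kb. LMNA (chr1:156082573-156140089), LMNB2 (chr19:2427638-2456996) and LMNB1 (chr5:126776623-126837020) lie on separate chromosomes, as do TMPO (chr12:98515512-98550379), EMD (chrX:154379197-154381523), SUN1 (chr7:816615-896435), SUN2 (chr22:38734725-38794143), LEMD2 (chr6:33771202-33789136) and BANF1 (chr11:66002079-66004149), and LBR (chr1:225401502-225428925) shares only its chromosome with LMNA (GENCODE 29, GRCh38). Exons of SUN1 overlapped those of GET4 on the same strand over 15.6% of their length, and exons of SUN2 overlapped those of GTPBP1 on the other strand over 10.5%. Pseudogenes of TMPO and BANF1 were at mean levels of at most 4.5.

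In all 4 kinds of senescence far more of the members were called lower than higher. A gene was called when the Wald test of its log2 fold change against untreated cells had a Benjamini-Hochberg adjusted p under 0.05 over the tested genes. In PMD-Sen 42 of 80 member-days were called lower (9.52% of all tested gene-days), in Ca2+-Sen 45 of 80 (9.79%), in DDR-Sen 52 of 80 (11.6%) and in RS 6 of 10 members (11.5%). In PMD-Sen 1 member-day was called higher (9.01% of all), in Ca2+-Sen 1 (8.31%), in DDR-Sen 0 (9.17%) and in RS 0 (11.6%). The median log2 fold change of the members by day lay between -0.76 and -0.23 in PMD-Sen, -0.71 and -0.15 in Ca2+-Sen and -0.59 and -0.37 in DDR-Sen, and was -0.58 in RS, whereas that of all tested genes lay between -0.04 and 0.02 in every comparison. In bulk RNA, fewer cells of a kind and less RNA of a gene per cell cannot be told apart.

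At the end of treatment 8 members were called lower in PMD-Sen (20.2% of all tested genes), 6 in Ca2+-Sen (26.5%) and 7 in DDR-Sen (14.9%). At day 16 the numbers were 6 in PMD-Sen (11.5%), 6 in Ca2+-Sen (6.08%) and 7 in DDR-Sen (16.7%). LMNB1, LMNB2, TMPO and LBR made up 99 of the 145 lower calls, and the first 3 were called lower in all 25 comparisons.

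**Figure D1:**
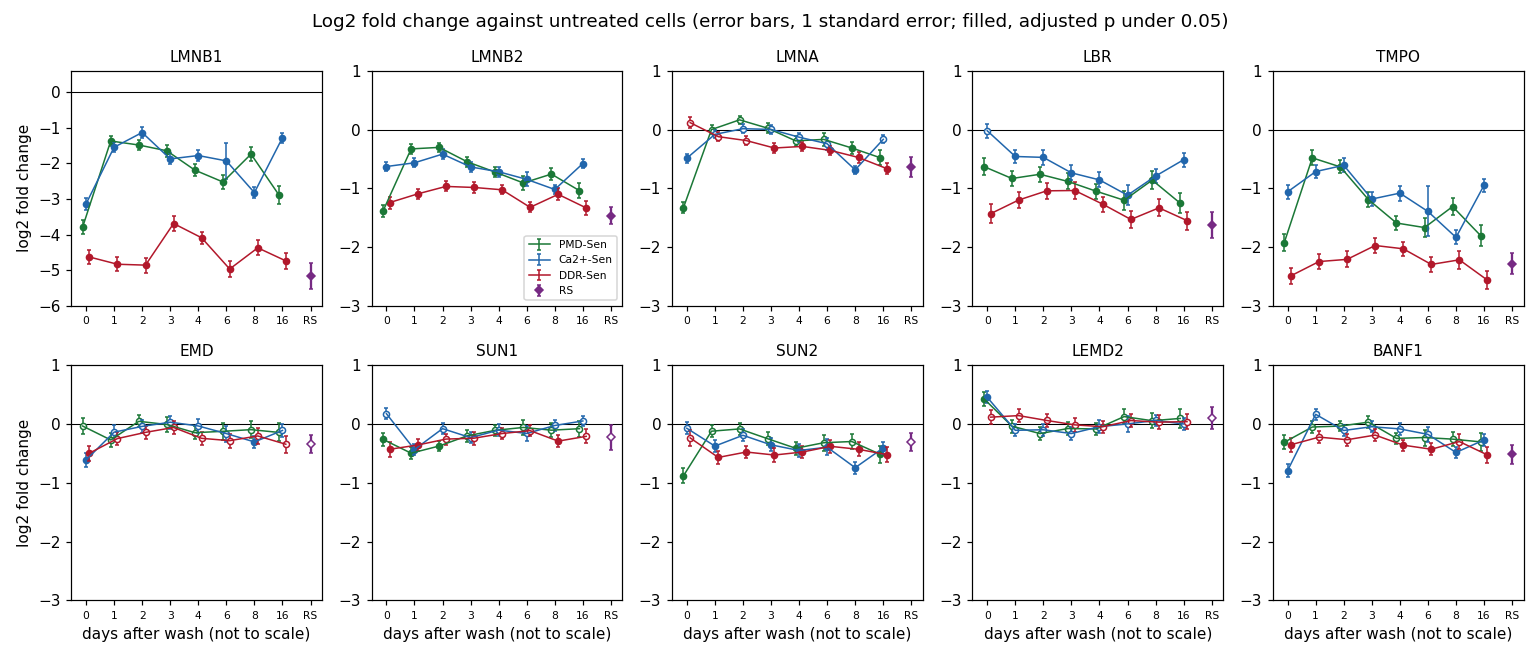
Log2 fold change of each of the 10 members against untreated cells, by day after treatment (evenly spaced, not to scale) for PMD-Sen (green), Ca2+-Sen (blue) and DDR-Sen (red), with RS as a purple diamond. Error bars are 1 standard error, filled points were called at an adjusted p under 0.05, and the LMNB1 panel has a longer axis, on which DDR-Sen and RS lie between -5.16 and -3.69.

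LMNB1, the gene of lamin B1, had the lowest log2 fold change of the 10 members in all 25 comparisons. Its level was 1154 in untreated cells and 32.2 in RS cells, 35.8-fold lower (log2 fold change -5.16 ± 0.35, standard error, n = 2 against 2, adjusted p = 1.03e-45 by DESeq2's Wald statistic). In DDR-Sen it was 46.6 at day 0, 40.5 at day 1, 39.8 at day 2, 89.6 at day 3, 67.8 at day 4, 36.9 at day 6, 55.7 at day 8 and 43.2 at day 16. A low level was thus already reached when doxorubicin was removed, and the untreated level was not regained on any day sampled. Log2 fold changes lay between -4.97 and -3.69. The course was not flat, with higher levels on days 3 and 4 than on day 2, and a change between these days was not tested. In PMD-Sen the level was 83.6 at day 0, 446 at day 1, 412 at day 2, 368 at day 3, 253 at day 4, 201 at day 6, 345 at day 8 and 155 at day 16. It was 13.8-fold below untreated cells at day 0 (log2 -3.79 ± 0.21), 2.59-fold at day 1 (-1.37 ± 0.15) and 7.43-fold at day 16 (-2.89 ± 0.25). In Ca2+-Sen the level was 131 at day 0, 395 at day 1, 526 at day 2, 315 at day 3, 336 at day 4, 303 at day 6, 163 at day 8 and 475 at day 16, with log2 fold changes of -3.14 ± 0.18 at day 0 and -1.28 ± 0.14 at day 16. Its standard error on Ca2+-Sen day 6 was 0.51, against at most 0.35 in the other comparisons. In the order of the 25 treated levels, 23 of 24 neighbours differed by less than the 95% width of their combined standard error, and the exception was the step from DDR-Sen day 3 to Ca2+-Sen day 0.

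**Figure D2:**
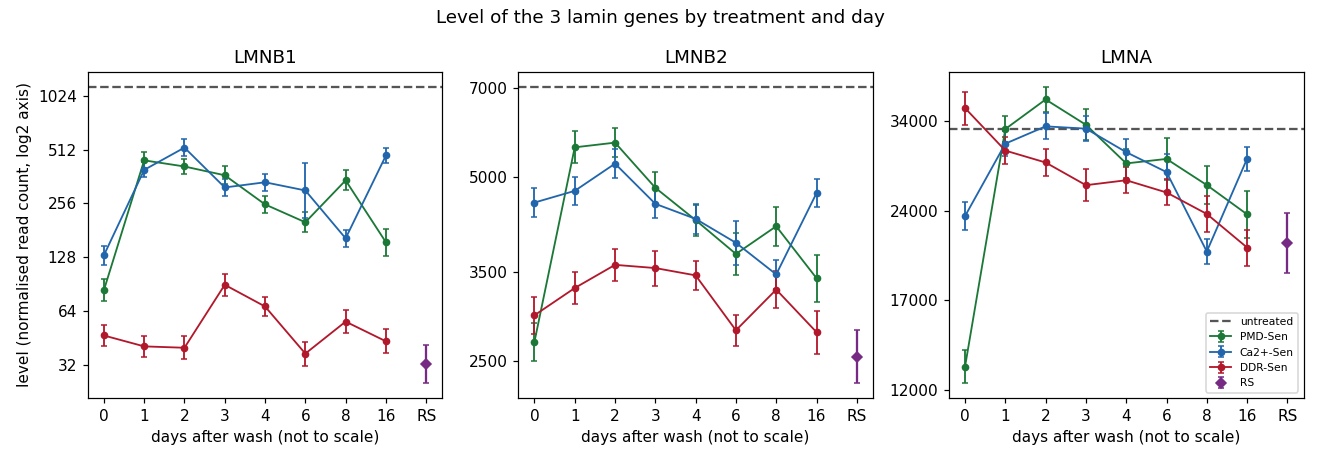
Level of LMNB1, LMNB2 and LMNA (normalised read count, log2 axis with its own range in each panel) by day after treatment for PMD-Sen (green), Ca2+-Sen (blue) and DDR-Sen (red), with RS as a purple diamond and untreated cells as a dashed line. Points are group levels of 2 libraries and bars 1 standard error of the log2 fold change, and LMNB1 in DDR-Sen stays between 36.9 and 89.6 while PMD-Sen and Ca2+-Sen reach 446 and 526.

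LMNB2, the gene of lamin B2, fell in the same 25 comparisons by less. From 7029 in untreated cells, its level in PMD-Sen was 2689 at day 0, 5593 at day 1, 5693 at day 2, 4802 at day 3, 4251 at day 4, 3743 at day 6, 4154 at day 8 and 3416 at day 16. In Ca2+-Sen it was 4542, 4747, 5260, 4521, 4271, 3903, 3465 and 4706 on the same days. In DDR-Sen it ranged from 2788 to 3592 (median 3282), and in RS it was 2541, 2.77-fold lower than in untreated cells (log2 -1.47 ± 0.14, adjusted p = 1.33e-22). The smallest fall was -0.30 ± 0.08 on day 2 of PMD-Sen (adjusted p = 0.00152).

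LMNA, the gene of lamins A and C, was called lower in 11 of 25 comparisons and higher in 0. From 32994 in untreated cells, its level in PMD-Sen was 13126 at day 0, 32977 at day 1, 36983 at day 2, 33524 at day 3, 28861 at day 4, 29368 at day 6, 26538 at day 8 and 23688 at day 16. Day 0 of PMD-Sen was the lowest of its 25 levels (log2 -1.33 ± 0.09, adjusted p = 3.83e-45), and the step to the next level, Ca2+-Sen day 8, was 5.62 combined standard errors wide. In Ca2+-Sen it was 23529 at day 0 and 20509 at day 8, both called, and between 27908 and 33322 on the other days, of which none was called. In DDR-Sen it was 35770 at day 0 (log2 0.12 ± 0.09, adjusted p = 0.393), 30333 at day 1, 28964 at day 2, 26525 at day 3, 27038 at day 4, 25786 at day 6, 23726 at day 8 and 20829 at day 16, and was called lower from day 3 on. RS cells were at 21179 (log2 -0.64 ± 0.17, adjusted p = 0.00122).

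The fall of LMNB1 was larger than that of LMNA in each treated group, and the ratio of the lamin transcripts moved with it. LMNA stood 14.9-fold above LMNB1 per kb of exon in untreated cells. This ratio was between 38.4 and 81.7 in PMD-Sen, 32.2 and 93.3 in Ca2+-Sen and 154 and 399 in DDR-Sen, and 342 in RS. The ratio of LMNB2 to LMNB1 per kb was 4.07 in untreated cells, 8.06 to 21.5 in PMD-Sen, 6.63 to 23.2 in Ca2+-Sen, 26.5 to 60.4 in DDR-Sen and 52.8 in RS. These ratios of group levels are a description, and lie above the untreated value in all 25 treated groups.

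TMPO, whose products bind lamins and chromatin, was called lower in all 25 comparisons. Its level was 2076 in untreated cells and 425 in RS. In PMD-Sen it was 546 at day 0, 1487 at day 1, 1335 at day 2, 908 at day 3, 689 at day 4, 653 at day 6, 837 at day 8 and 594 at day 16. It rose after the detergent was removed and then declined, as LMNB1 did. In Ca2+-Sen it was 996, 1264, 1362, 914, 981, 790, 582 and 1076 on the same days, and in DDR-Sen it ranged from 351 to 529. The log2 fold change was -2.56 ± 0.15 on day 16 of DDR-Sen (5.91-fold lower, adjusted p = 3.44e-60), -1.81 ± 0.18 on day 16 of PMD-Sen, -0.95 ± 0.11 on day 16 of Ca2+-Sen and -2.29 ± 0.18 in RS. Its standard error on Ca2+-Sen day 6 was 0.43, against at most 0.18 elsewhere. The antisense gene TMPO-AS1 shares 8.3% of the TMPO exon bases on the other strand, at a mean level of 13.9.

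LBR, which binds B-type lamins and heterochromatin and is also a sterol reductase, was called lower in 24 of 25 comparisons. From 1340 in untreated cells it was at 866 on day 0 of PMD-Sen, 752 on day 1 and 561 on day 16. In DDR-Sen it ranged from 458 to 653, and in RS it was 436 (log2 -1.62 ± 0.22, adjusted p = 4.32e-12). The exception was day 0 of Ca2+-Sen, where its level was 1321 (log2 -0.02 ± 0.12, adjusted p = 0.90). One day later it was 975 (log2 -0.46 ± 0.12, adjusted p = 0.00158), and the lowest Ca2+-Sen level was 617 at day 6.

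The 6 remaining members made up 46 of the 145 lower calls. EMD was at 1354 in untreated cells, between 1123 and 1398 in PMD-Sen, 887 and 1384 in Ca2+-Sen and 960 and 1300 in DDR-Sen, and at 1071 in RS. It was called lower in 3 comparisons, Ca2+-Sen day 0 (log2 -0.61 ± 0.11) and day 8 (-0.30 ± 0.11) and DDR-Sen day 0 (-0.50 ± 0.13). LEMD2, which takes part in resealing the envelope after mitosis, was the only member called higher: it rose from 1920 to 2589 on day 0 of PMD-Sen (log2 0.43 ± 0.12, adjusted p = 0.00084) and to 2633 on day 0 of Ca2+-Sen (0.46 ± 0.10, adjusted p = 2.82e-05). In the other 23 comparisons, in which it was not called, its level was between 1716 and 2121. BANF1 was at 2282 in untreated cells and fell to 1319 on day 0 of Ca2+-Sen (log2 -0.79 ± 0.11, adjusted p = 8.98e-12). It was called lower in 1 of 8 PMD-Sen comparisons, 3 of 8 Ca2+-Sen, 4 of 8 DDR-Sen and in RS (1595, log2 -0.52 ± 0.16).

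The SUN-domain genes followed separate courses. SUN1 was at 3317 in untreated cells and was called lower in 7 comparisons, on days 0, 1 and 2 of PMD-Sen (log2 -0.26, -0.50 and -0.37), day 1 of Ca2+-Sen (-0.43) and days 0, 1 and 8 of DDR-Sen (-0.43, -0.36 and -0.29). Its level was between 2350 and 3185 in PMD-Sen, 2455 and 3747 in Ca2+-Sen and 2463 and 3068 in DDR-Sen. SUN2 was at 2016 in untreated cells and was called lower in 16 comparisons, 3 of PMD-Sen, 6 of Ca2+-Sen and 7 of DDR-Sen. It was lowest on day 0 of PMD-Sen, at 1094 (log2 -0.88 ± 0.13, adjusted p = 3.2e-11), and was at 1852 a day later. In RS neither was called (SUN1 log2 -0.23 ± 0.21, SUN2 -0.31 ± 0.15). Per kb of exon the ratio of SUN2 to SUN1 was 1.11 in untreated cells, 0.72 on day 0 of PMD-Sen and 1.43 on day 1.

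The inducers were then compared with each other on the same day, by subtracting their log2 fold changes and dividing by the combined standard error, with p adjusted over all tested genes of each pair and day. The 3 pairs, 8 days and 10 members gave 240 differences. PMD-Sen was higher than DDR-Sen in 20 of 80 and lower in 2 (6.55% of all tested genes called in either direction). Ca2+-Sen was higher than DDR-Sen in 23 of 80 and lower in 2 (7.83%). PMD-Sen was lower than Ca2+-Sen in 10 of 80 and higher in 3 (6.47%), the latter becoming 8 when the share of untreated cells is left out of the error. The percentages belong to the full error, and those with the smaller error are not given. The median difference of the members was 0.21 for PMD-Sen minus DDR-Sen, 0.26 for Ca2+-Sen minus DDR-Sen and -0.03 for PMD-Sen minus Ca2+-Sen, beside 0.014, 0.010 and 0.006 for all tested genes.

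LMNB1 differed from DDR-Sen on all 8 days in both other inducers. On day 1 its level was 446 in PMD-Sen and 40.5 in DDR-Sen, a log2 difference of 3.46 ± 0.25 (95% interval 2.97 to 3.95), and on day 16 it was 155 against 43.2 (1.84 ± 0.33, adjusted p = 0.000107). For Ca2+-Sen the differences lay between 1.49 and 3.72, the latter on day 2 (526 against 39.8). TMPO was higher in PMD-Sen than in DDR-Sen on 5 days and higher in Ca2+-Sen on 6, with 1.76 ± 0.18 and 1.53 ± 0.17 on day 1. LMNB2 was higher than in DDR-Sen on 3 days in PMD-Sen and 4 in Ca2+-Sen, and LBR on 1 and 3. On day 0 LMNA ran the other way: it was lower than in DDR-Sen by -1.45 ± 0.13 in PMD-Sen and by -0.60 ± 0.12 in Ca2+-Sen. For both pairs the share of all tested genes called at day 0 alone is not given.

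Of the 13 called differences between PMD-Sen and Ca2+-Sen, 9 lay at day 0, when 38.6% of all tested genes were called between the pair. On that day 7 members were lower in PMD-Sen: LMNB1 (-0.65 ± 0.28), LMNB2 (-0.76 ± 0.13), LMNA (-0.84 ± 0.12), LBR (-0.61 ± 0.19), TMPO (-0.87 ± 0.19), SUN1 (-0.44 ± 0.14) and SUN2 (-0.81 ± 0.16). EMD (0.58 ± 0.17) and BANF1 (0.48 ± 0.16) were higher. LEMD2 was not called, with a difference of -0.02 and a 95% interval from -0.33 to 0.28. No member was called from day 1 to day 6 (1.42% of all tests). With the smaller error 4 were called, LMNB2 (0.24) and LBR (-0.37) on day 1, SUN1 (-0.30) on day 2 and TMPO (-0.51) on day 4. The 1.42% belongs to the larger error, and the share of all tests called with the smaller one is not given. For LMNB1 the intervals were -0.23 to 0.58 on day 1 and -1.65 to 0.47 on day 6. On day 8 LMNB1 was higher in PMD-Sen (1.08 ± 0.25, 3.28% of all called), and on day 16 LMNB1 (-1.61 ± 0.29), LBR (-0.74 ± 0.21) and TMPO (-0.86 ± 0.21) were lower (2.72%).

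**Figure D3:**
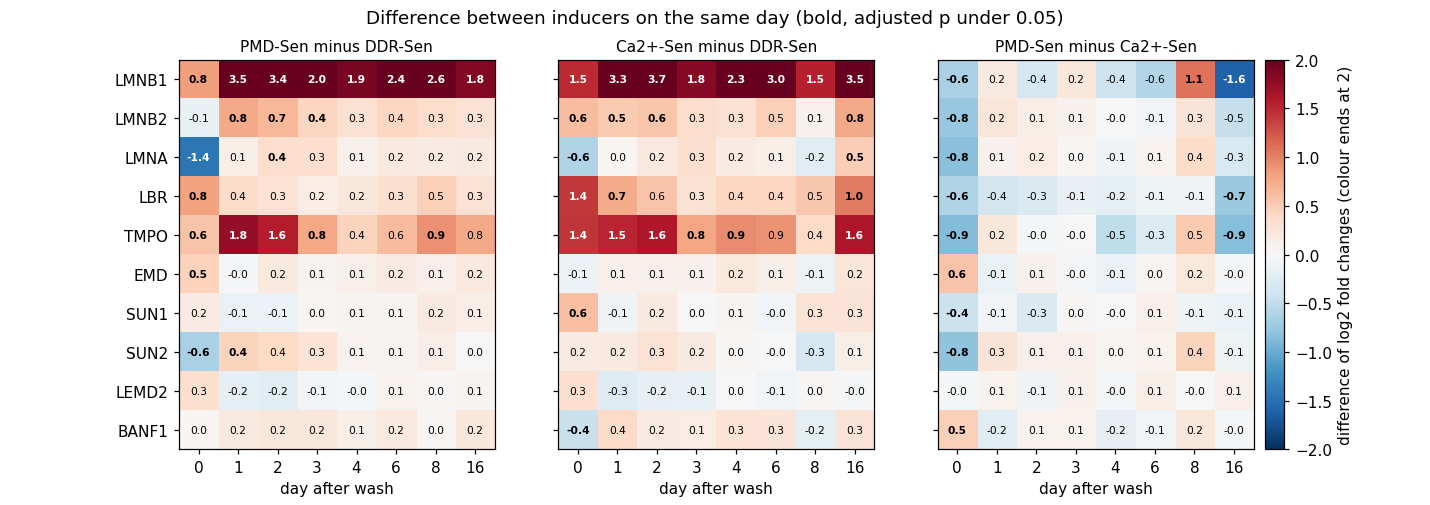
Difference of log2 fold changes between inducers on the same day, for the 10 members (rows) and 8 days (columns), PMD-Sen minus DDR-Sen, Ca2+-Sen minus DDR-Sen and PMD-Sen minus Ca2+-Sen. The printed value is the difference to 1 decimal, bold where called, and the colour ends at 2; the LMNB1 row is positive and called on all 8 days in the first 2 panels, and the third panel has 9 of its 13 called cells at day 0, when 38.6% of all tested genes were called.

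Day 1 was then compared with day 0 within each inducer. In PMD-Sen 5 members rose and 1 fell (29% of all tested genes called): LMNB1 by 2.42 ± 0.26, TMPO by 1.44 ± 0.19, LMNA by 1.33 ± 0.12, LMNB2 by 1.06 ± 0.13 and SUN2 by 0.76 ± 0.16, while LEMD2 changed by -0.47 ± 0.16. In Ca2+-Sen 4 rose and 3 fell (36.5%): LMNB1 (1.59 ± 0.23), BANF1 (0.96 ± 0.14), EMD (0.47 ± 0.17) and LMNA (0.41 ± 0.11) rose, and SUN1 (-0.61 ± 0.13), LEMD2 (-0.56 ± 0.14) and LBR (-0.44 ± 0.16) fell. In DDR-Sen 0 of 10 members were called (3.54%), with a difference for LMNB1 of -0.20 and an interval from -0.75 to 0.34. With the share of untreated cells left out of the error 1 was called, and the share of all tested genes called in that way is not given. Whether these steps differ between inducers was not tested as such.

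From day 1 to day 16, LMNB1 (-1.52 ± 0.29), TMPO (-1.32 ± 0.22), LMNB2 (-0.71 ± 0.15) and LMNA (-0.48 ± 0.15) fell in PMD-Sen (19.6% of all tested genes called). In Ca2+-Sen SUN1 rose (0.49 ± 0.13) and BANF1 fell (-0.44 ± 0.13), with 9.43% of all called. In DDR-Sen LMNA alone of the 10 members fell (-0.54 ± 0.13), a count near the 8.8% of all called. Day 16 against day 0 gave 3 called members in PMD-Sen (28.3%), LMNB1 (0.89 ± 0.33) and LMNA (0.85 ± 0.16) higher and LBR (-0.63 ± 0.22) lower. It gave 6 in Ca2+-Sen (34.5%), with LMNB1 1.86 ± 0.23 higher, and 1 in DDR-Sen (12.6%), LMNA at -0.78 ± 0.14. Out of 10 members, the PMD-Sen and DDR-Sen counts from day 0 to day 16 are near the shares of all tested genes.

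Day 16 of each inducer was set beside RS. In DDR-Sen 0 of 10 members were called (0.148% of all tested genes); LMNB1 was at 43.2 against 32.2, a difference of 0.42 with an interval from -0.39 to 1.24, which does not show that the levels were alike. In PMD-Sen 1 was called (0.685%), LMNB1 at 155 against 32.2 (2.27 ± 0.43, adjusted p = 0.000165). In Ca2+-Sen 4 were called (4.25%), LMNB1 (3.88 ± 0.38), TMPO (1.34 ± 0.21), LBR (1.11 ± 0.25) and LMNB2 (0.89 ± 0.16), all higher than in RS.

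The members were also set beside 14 genes of dividing cells, among them MKI67, TOP2A, CCNA2 and the MCM genes. Of this list 91.96% of gene-days were called lower in PMD-Sen, 93.75% in Ca2+-Sen, 95.54% in DDR-Sen and 100% in RS. Over the 26 groups, the log2 level of LMNB1 had a Pearson correlation of 0.97 with the mean log2 level of these genes, TMPO 0.95, LMNB2 0.89 and LBR 0.73. The correlation was 0.61 for BANF1, 0.53 for EMD, 0.52 for SUN2, 0.43 for LMNA, 0.18 for SUN1 and -0.40 for LEMD2. These are descriptions without a test, since the groups share a course of treatment, a scale and the untreated libraries. MKI67, the gene of the Ki-67 antigen of cycling cells, was called lower in all 25 comparisons, by -3.25 on day 0 of PMD-Sen, -0.97 on day 1 and -3.15 on day 16. TOP2A (median log2 -2.62) was called lower in 24, TYMS (-1.37) in 24 and PCNA (-0.41) in 17 and higher in 1. The part that the number of dividing cells has in the members' levels was not tested.

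**Figure D4:**
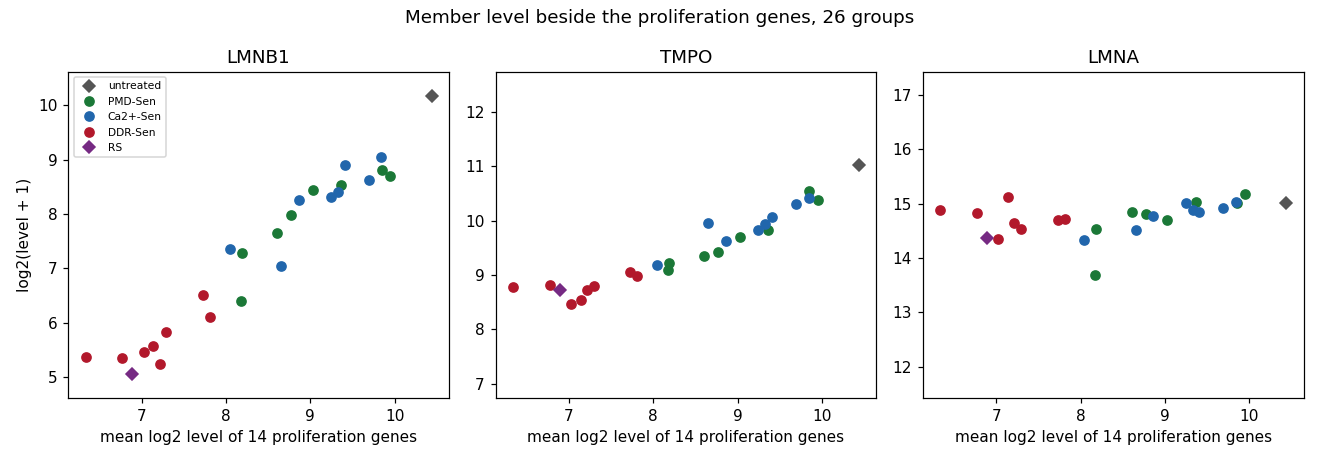
Log2(level + 1) of LMNB1, TMPO and LMNA against the mean log2 level of 14 genes of dividing cells, with 1 point for each of the 26 groups, the axes spanning the same 6 log2 units in height. LMNB1 and TMPO rise along the x axis (Pearson 0.97 and 0.95) and LMNA less so (0.43), with day 0 of PMD-Sen as its lowest point at 13.7.

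The genes with courses most like each member were taken by Pearson correlation over the 26 groups among genes with a mean level of at least 100. For members other than LMNB1, a ranking by Spearman's correlation shared at most 1 of the 3 genes named. For LMNB1 they were CIT (0.976), SPC24 (0.975), GINS2 (0.974), FANCD2 (0.969) and CCNA2 (0.968). For TMPO they were FANCI, RACGAP1 and CIP2A (0.981 to 0.982), for LMNB2 UHRF1, ATAD2 and HELLS (0.962 to 0.976) and for LBR CTDSPL2, DEK and TOPBP1 (0.910 to 0.933). For LMNA they were TNFAIP8L1, AMOT and CAPN1 (0.926 to 0.928), for BANF1 MTHFD1, ATIC and FARSB (0.921 to 0.937), for EMD AZIN1, FAF1 and MTMR4 (0.874 to 0.906) and for LEMD2 ZNF740, ZNF263 and SLC6A9 (0.908 to 0.926). SUN1 (CDC14B, FNBP1 and LPAR1, 0.793 to 0.858) and SUN2 (TAGLN2, CAB39 and CDK2, 0.811 to 0.846) had the least close companions. Among the members, LMNB2 and TMPO (0.94), LMNB1 and TMPO (0.93) and LMNB1 and LMNB2 (0.90) were closest, and LEMD2 was most opposed to BANF1 (-0.68) and LMNA (-0.67).

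Genes that act with the members were counted from lists chosen by function. Of all tested genes, 9.52% of tests were called lower in PMD-Sen, 9.79% in Ca2+-Sen, 11.6% in DDR-Sen and 11.5% in RS. Of 16 other inner membrane and LINC complex genes, 14 were tested, and 18.75% of their gene-days were called lower in PMD-Sen, 16.96% in Ca2+-Sen, 25.89% in DDR-Sen and 14.29% in RS. SYNE2, which encodes nesprin-2, the partner of SUN proteins in the outer membrane, was called lower in 19 comparisons (median log2 -1.14) and NEMP1 in 21 (median -0.68). SYNE1, the gene of nesprin-1, rose on day 0 of PMD-Sen from 2936 to 5780 (log2 0.98 ± 0.10) and was called lower there from day 4 on, at -0.70 on day 16. TOR1B (median 0.23) was called higher in 6, and CNEP1R1 (median 0.20) in 1. ANKLE2, which promotes the dephosphorylation of BANF1, was called higher on day 0 of Ca2+-Sen, from 2546 to 6383 (log2 1.33 ± 0.09, adjusted p = 2.5e-42), and of PMD-Sen (0.28 ± 0.11). On the former day BANF1 was at its lowest, and a link between the levels of ANKLE2 and BANF1 was not tested.

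Lamin-processing enzymes were counted over 5 genes, so each share rests on few tests. In PMD-Sen 2.5% of their gene-days were called lower (9.52% of all tested gene-days) and 10% higher (9.01%). In Ca2+-Sen 5% were called lower (9.79%) and 5% higher (8.31%), and in DDR-Sen 5% lower (11.6%) and 5% higher (9.17%). In RS 0% were called lower (11.5%) and 0% higher (11.6%). ZMPSTE24, the protease that trims prelamin A, was called higher in 7 comparisons, with 0.46 ± 0.11 on day 0 of PMD-Sen. LMNA was lowest there, and a link between the levels of ZMPSTE24 and LMNA was not tested. FNTA, a farnesyltransferase subunit, was called higher on day 0 of Ca2+-Sen (0.58 ± 0.11), FNTB and RCE1 in none, and ICMT was called lower in 5.

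Of 7 genes of envelope reassembly, 35.71% of gene-days were called lower in PMD-Sen, 37.5% in Ca2+-Sen, 58.93% in DDR-Sen and 57.14% in RS. VRK1, the kinase that releases BANF1 from DNA, was called lower in 19 comparisons (median -0.89) and CBX5, the heterochromatin protein that binds LBR, in 21 (median -0.52). CHMP7, the ESCRT partner of LEMD2, was called higher on days 0 and 1 of PMD-Sen (0.31 ± 0.12 and 0.44) and VRK3 in 2 comparisons. Of 31 nuclear pore genes, 30 were tested and 31.25%, 25%, 53.75% and 56.67% of gene-days were called lower in PMD-Sen, Ca2+-Sen, DDR-Sen and RS, with the lowest medians in NDC1 (-0.97, 24 comparisons) and NUP160 (-0.85, 8 comparisons), while RANBP2 (median 0.04) was called lower in 0 and POM121C in 1.

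**Figure D5:**
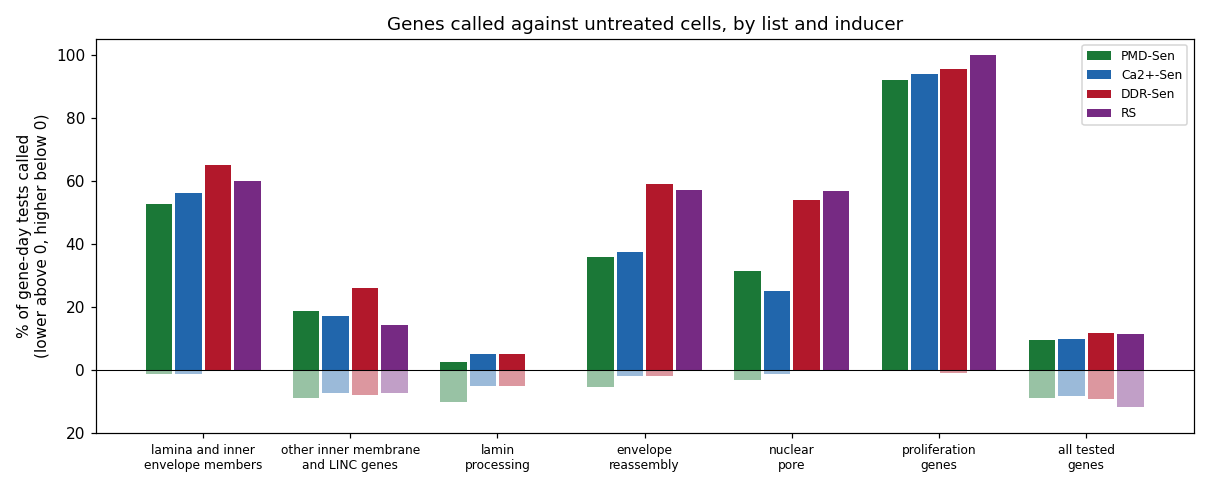
Share of gene-day tests called lower (solid, above 0) and higher (pale, below 0) against untreated cells, for the members, 5 other lists and all tested genes, by inducer (PMD-Sen green, Ca2+-Sen blue, DDR-Sen red, RS purple). Between 52.5% and 65% of member tests were called lower, beside 9.52% to 11.6% of all tested genes and 91.96% to 100% of those of the proliferation genes.

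The libraries held about 15400000 and 18800000 counted reads for untreated cells, as worked out from the smallest steps of the mean levels, and 19100000 to 58000000 (median 29500000) for treated ones. The labelled cell type was checked with 10 fibroblast genes, whose summed level lay between 428133 and 978875 in the 26 groups. Their median log2 fold changes ran from -0.54 for COL1A1 and -0.27 for COL3A1 to 0.02 for THY1 and 0.31 for LUM. In PMD-Sen 7 of the 10 were called lower on day 0 (median of the list -0.95), 7 on day 1 (-0.97) and 8 on day 2 (-0.90), and in Ca2+-Sen 6 on day 0 (-0.41). Their part in the members' values on those days was not tested. Of 9 markers of other cell types, among them EPCAM and VWF, 6 had a mean level under 10 and the sum lay between 50.03 and 278. The other 3, VWF, CD14 and PECAM1, were tested. CD14 was called higher in 6 comparisons (highest log2 fold change of the 25, 3.23), PECAM1 in 1 (highest, 5.71) and VWF in 0, and none was called lower. Their part in the members' values was not tested. Scaling by library totals or by the median gene would shift no comparison by more than 0.1 on the log2 scale.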

How the data were processed

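mRNA of 2 independent samples per group was sequenced on an Illumina NovaSeq instrument by the authors. The submitters' processing notes name Trim Galore, HISAT2, HTSeq, featureCounts, DESeq2 and GRCh38 (hg38), and versions were not given in the sources used here. The authors deposited, for each of the 25 treated groups against untreated cells, a DESeq2 table of the mean normalised signal, the log2 fold change, the error of that change and the raw and adjusted p-values. The 52 files hold 25 distinct tables, and 0 other columns of per-sample values were left aside. These columns are the authors' own comparison, and they are used because no table gives a value of a single library. Every fold change, standard error and Wald statistic therefore comes from the deposited tables, and the p-values measure only the spread between these samples.

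Group levels were worked out from each table's mean and log2 fold change and put on a common untreated scale with 8645 genes whose mean was above 200 in all tables. Genes with a mean of at least 10 over the 26 groups were tested (14898 of 59408), deposited p-values were adjusted again over them by Benjamini-Hochberg, and an adjusted p under 0.05 was called. Differences between treated groups were taken as the difference of their log2 fold changes over the combined standard error, with a normal two-sided p. The untreated libraries enter both, so this error is too large. Correlations used log2(level + 1). Calculations ran in Python 3.11.15 with SciPy 1.17.1, pandas 2.3.3 and NumPy 2.4.6, plots were drawn with matplotlib 3.10.9, and the calculations were tested on simulated data. A row naming no gene was left out in 23 tables (at most 0.00223% of the summed means). Named genes were all members, the 5 genes most like LMNB1 and 3 most like each other member, the 2 lowest and 2 highest of each list by median, and genes whose role pairs them with a member. FNTB, RCE1, ICMT and other genes of a list fall under this rule. The members and lists were chosen with earlier results of these data known.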

Additional observations from a re-analysis of the deposited data

Results flagged for a closer look

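The items below are differences between inducers on the same day that passed the test of the difference itself, with the clearest day of each member given on the log2 scale. Between PMD-Sen and DDR-Sen (PMD-Sen minus DDR-Sen) they were LMNB1 at 3.46 on day 1 (called on 8 days), LMNB2 at 0.76 on day 1 (3 days), TMPO at 1.76 on day 1 (5 days), LMNA at -1.45 on day 0 (2 days), LBR at 0.80 on day 0 (1 day), EMD at 0.46 on day 0 (1 day) and SUN2 at -0.65 on day 0 (2 days). LMNA and SUN2 each had 1 called day in either direction, LMNA being 0.35 higher in PMD-Sen on day 2 and SUN2 0.45 higher on day 1. Over the 8 days 6.55% of all tests were called between this pair, and the share at day 0 alone is not given.

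Between Ca2+-Sen and DDR-Sen (Ca2+-Sen minus DDR-Sen) they were LMNB1 at 3.72 on day 2 (8 days), LMNB2 at 0.76 on day 16 (4 days), TMPO at 1.53 on day 1 (6 days), LBR at 1.41 on day 0 (3 days), LMNA at -0.60 on day 0 (2 days), SUN1 at 0.61 on day 0 (1 day) and BANF1 at -0.44 on day 0 (1 day). LMNA was 0.50 higher in Ca2+-Sen on day 16. Over the 8 days 7.83% of all tests were called between this pair, and the share at day 0 alone is not given.

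Between PMD-Sen and Ca2+-Sen (PMD-Sen minus Ca2+-Sen) they were LMNB1 at -1.61 (3 days) and LBR at -0.74 (2 days) on day 16, and on day 0 LMNB2 at -0.76, LMNA at -0.84, TMPO at -0.87 (2 days), EMD at 0.58, SUN1 at -0.44, SUN2 at -0.81 and BANF1 at 0.48. LMNB1 changed sides, being lower in PMD-Sen on days 0 and 16 and higher on day 8. Of all tested genes 38.6% were called between this pair on day 0, 3.28% on day 8 and 2.72% on day 16. No explanation of these differences was tested.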

How the results depend on the processing

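No paired analysis was possible because no table holds a value of a single library, and for the same reason leaving out a replicate, a replicate block, a refit of counts and another normalisation of the libraries were not run. The alternatives were no filter on the mean, a mean of at least 100, scaling to library totals, centring on the median gene, a log2 size of at least 1, the authors' own adjusted p, leaving out of differences between treated groups the part of the error due to untreated cells, taken as 0.5 of each squared standard error (SE), and Spearman's in place of Pearson's correlation. No called value changed direction, while uncalled values close to 0, such as LMNA on day 1 of PMD-Sen, could change sign when rescaled. Of the counts of members, 197 stayed within 1.5 times and 31 moved. Of the values of single members, 3460 kept their side of the threshold, 61 passed it and 149 lost it.

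With a log2 size of at least 1, lower calls against untreated cells went from 42 to 20 in PMD-Sen, 45 to 15 in Ca2+-Sen and 52 to 30 in DDR-Sen, and higher calls from 1 to 0 in PMD-Sen and in Ca2+-Sen. PMD-Sen was then lower than DDR-Sen in 1 and higher in 9, lower than Ca2+-Sen in 1 and higher in 1, and Ca2+-Sen was lower than DDR-Sen in 0 and higher in 14. Between days of PMD-Sen, 0 members were lower on day 1 than day 0, 2 lower on day 16 than day 1, and 0 lower and 0 higher on day 16 than day 0. For Ca2+-Sen, 0 were lower and 1 higher on day 1 than day 0, 0 lower and 0 higher on day 16 than day 1, and 0 lower and 1 higher on day 16 than day 0. For DDR-Sen 0 were lower on day 16 than on day 1 or day 0. This threshold removes by construction every call of smaller size. The share of all tested genes called with it is not given, and the shares printed above belong to the main setting.

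With library totals, and with median centring, 2 member-days were called higher in Ca2+-Sen in place of 1. With the smaller SE, PMD-Sen was higher than Ca2+-Sen in 8, 1 member was higher on PMD-Sen day 16 than day 1, 2 were lower and 4 higher on its day 16 than day 0, 2 were higher on its day 16 than in RS, and 1 was lower on DDR-Sen day 1 than day 0. The shares of all tested genes called under these settings are not given. With Spearman's correlation 3 of the 5 genes most like LMNB1 were shared. Of the 3 genes most like each other member, 1 was shared for LMNB2, LBR, SUN1, SUN2 and BANF1. For LMNA, TMPO, EMD and LEMD2 0 of 3 were shared. Fewer than 3 libraries a group and the absence of per-library values limit the precision of all of these.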
